A study of Mus musculus with 24 samples.

Results

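The clustered protocadherins are cell-surface adhesion proteins of the cadherin family, encoded by 3 gene arrays that lie side by side on mouse chromosome 18. They were taken here as every gene of the deposited RNA table whose symbol is Pcdh followed by a, b, ga, gb, gc or ac and a number, which gave 57 of 34039 genes. These were 13 alpha genes (11 variable and the C-type genes Pcdhac1 and Pcdhac2), 22 beta genes and 22 gamma genes (12 of type A, 7 of type B and the C-type genes Pcdhgc3, Pcdhgc4 and Pcdhgc5). In the mm10 build, RefSeq places the alpha genes at positions 36930285 to 37188897 of chromosome 18, the beta genes at 37264998 to 37521419 and the gamma genes at 37661775 to 37841873.

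The nuclei were taken from amygdalae of adult males of 2 inbred strains, DBA and BL6, aged 10 to 16 weeks. RNA of single nuclei was counted per gene, and ATAC fragments, which mark open chromatin, were counted per peak in other nuclei, with 2 libraries per strain in each assay. Each library pooled about 2 animals, so the spread between libraries of 1 strain is a spread between pools. RNA nuclei were sorted to a mix of 75% NeuN-positive neurons and 25% other nuclei, while ATAC nuclei were sorted without that antibody. The series also holds 16 methylation libraries, which were not analysed here.

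Each alpha and each gamma variable exon carries its own promoter and is spliced to constant exons shared by its whole array, whereas beta genes consist of a single large exon. In neurons, promoter choice is largely stochastic for the variable genes and involves the insulator protein CTCF and the cohesin ring, which bring a distal enhancer to one promoter. The proteins bind copies of themselves on other membranes and give each neuron a surface identity used in self-avoidance, while C-type genes are known for more uniform expression and for roles such as axon tiling (Pcdhac2) and neuron survival (Pcdhgc4).

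The authors summed the counts over the nuclei of each of 22 cell types per library, of which 20 had enough nuclei and counts in all 4 libraries to be tested. RNA libraries held 30693629 to 66304405 counts from 2867 to 8079 nuclei, of which 47.0% to 69.9% were neuronal. ATAC libraries held 66535381 to 86927891 counts, and 97.0% to 98.2% of their nuclei were neuronal. Values are CPM, which are counts scaled to 1000000 counts of that column, and since CPM is not per length, levels are compared here between samples. Where genes are ranked or their shares given, the values are counts or CPM, to which gene length contributes. Levels are sums over nuclei, so fewer expressing cells and less RNA per cell cannot be told apart. The RefSeq spans of the alpha genes overlap each other, each with 12 other members, and those of the gamma genes overlap 21 others, because they share their 3′ end. How the authors' counting assigned reads from the shared exons was not given in the sources used here, so counts of single alpha and gamma genes are uncertain in a way that those of beta genes, which overlap no other member, are not. Pcdha10 RNA was not analysed here.

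The members together held 141 and 154 CPM in DBA libraries 2 and 3, against 141 and 142 CPM in BL6 libraries 2 and 3. The family was thus a small part of the nuclear RNA in both strains, and its summed level differed between strains by no more than between the DBA libraries. Of the members' counts, 19.4% were from the alpha array, 38.3% from the beta array and 42.4% from the gamma array. A few genes held much of each array, since the leading 4 genes took 56.4% of alpha, 43.7% of beta and 39.9% of gamma counts. The totals ran from 20 counts for Pcdhb1 to 1582 counts for Pcdhga12.

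Among alpha genes, Pcdha1 had 4.95 and 5.85 CPM in DBA libraries, against 3.74 and 3.84 CPM in BL6 libraries. Pcdha5 had 4.33 and 5.59 CPM in DBA libraries and 3.92 and 3.65 CPM in BL6 libraries. The DBA libraries lay above the BL6 libraries in both genes, and neither was called between strains (edgeR adjusted p = 0.10 and 0.25). Pcdha4 had 3.52 and 3.91 CPM in DBA libraries and 4.62 and 3.42 CPM in BL6 libraries, and Pcdhac2 had 2.96 and 3.18 CPM in DBA libraries and 2.79 and 2.05 CPM in BL6 libraries. The strains overlapped in Pcdha4 and did not in Pcdhac2, and neither was called.

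Among beta genes, Pcdhb14 had 7.69 and 8.47 CPM in DBA libraries and 7.77 and 7.10 CPM in BL6 libraries, and Pcdhb17 had 6.26 and 7.68 CPM in DBA libraries and 6.86 and 6.48 CPM in BL6 libraries. The strains overlapped in both. Pcdhb16 had 4.79 and 5.08 CPM in DBA libraries and 5.08 and 4.24 CPM in BL6 libraries, and Pcdhb20 had 4.79 and 4.74 CPM in DBA libraries and 4.65 and 3.71 CPM in BL6 libraries. Among gamma genes, Pcdhga12 had 7.81 and 9.26 CPM in DBA libraries and 8.26 and 10.2 CPM in BL6 libraries. The C-type genes Pcdhgc4 and Pcdhgc5 were also among the leading gamma genes, with Pcdhgc4 at 6.75 and 6.10 CPM in DBA libraries and 6.26 and 6.45 CPM in BL6 libraries, and Pcdhgc5 at 3.73 and 4.40 CPM in DBA libraries and 4.78 and 4.85 CPM in BL6 libraries. Pcdhga7 had 5.60 and 4.94 CPM in DBA libraries and 4.62 and 4.27 CPM in BL6 libraries. Of these leading genes, none was called between strains over all nuclei.

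**Figure D1:**
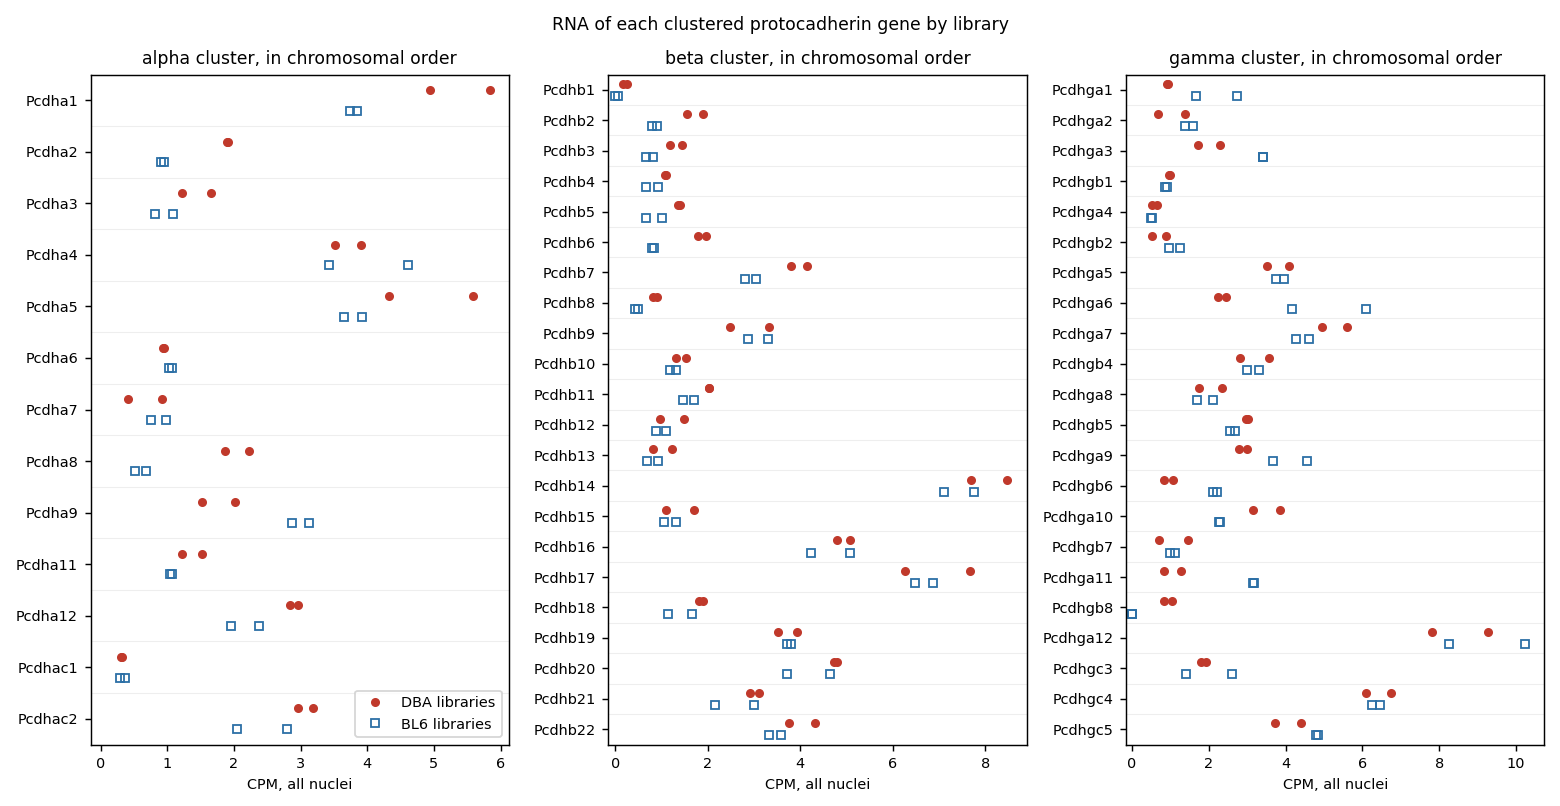
CPM over all nuclei of each of the 57 members, on a linear axis, with 1 panel per array and genes in chromosomal order. Each point is 1 library, with the DBA pair above the BL6 pair for each gene, and among the genes with the highest values the strains overlap in Pcdhb14 and Pcdhga12 and do not in Pcdha1.

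The arrays had distinct distributions over the cell classes. The alpha array was a neuronal array, with 30.7 ± 3.09 CPM in excitatory and 34.7 ± 2.81 CPM in inhibitory neurons, against 9.53 ± 2.92 CPM in non-neuronal nuclei (SD, n = 4 libraries). The beta array was similar in the classes, with 48.4 ± 8.41, 60.4 ± 3.29 and 56.0 ± 9.48 CPM in excitatory, inhibitory and non-neuronal nuclei. The gamma array was highest in non-neuronal nuclei, with 52.5 ± 3.75 CPM in excitatory, 55.5 ± 8.64 CPM in inhibitory and 90.2 ± 4.29 CPM in non-neuronal nuclei.

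Within the non-neuronal class the alpha array was mostly that of oligodendrocyte precursors. These dividing glia, labelled NN-OPC, had 42.6 and 41.5 CPM of alpha counts in DBA libraries, against 24.0 and 26.8 CPM in BL6 libraries. Their mean of 33.7 ± 9.70 CPM lay within the range of the 14 neuronal types, which ran from 20.5 CPM in Neuronal-Aldoa-Cst3 to 37.1 CPM in Inh-Lypd6b. Astrocytes (NN-Astro) had 3.20 and 3.03 CPM in DBA libraries, against 2.26 and 1.78 CPM in BL6 libraries. With the 4 libraries pooled, the alpha array had 228 counts in precursors, or 32.5 CPM with an exact 95% Poisson interval of 28.4 to 37.0. The same pooled level was 2.52 CPM (1.82 to 3.40, 43 counts) in astrocytes, 5.07 CPM (3.47 to 7.16, 32 counts) in oligodendrocytes (NN-ODC) and 4.29 CPM (2.28 to 7.33, 13 counts) in microglia (NN-MGC). These intervals cover counting error only.

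Precursors were 15.4% and 17.4% of the non-neuronal nuclei in DBA libraries and 14.4% and 14.1% in BL6 libraries. The summed level of 5 precursor markers was 2415 to 2893 CPM in NN-OPC and 41.3 to 58.6 CPM in NN-Astro. The summed level of 5 inhibitory markers, none at 0, was 74.6 to 110 CPM in NN-OPC and 27.7 to 68.3 CPM in NN-Astro. That of 5 excitatory markers, none at 0, was 31.1 to 43.5 CPM in NN-OPC and 37.8 to 59.5 CPM in NN-Astro. The part of neuronal RNA in the alpha counts of these types was not tested.

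The beta array was lowest in microglia, at 17.0 ± 7.38 CPM, and in oligodendrocytes, at 26.6 ± 8.00 CPM, and highest in precursors, at 95.0 ± 5.18 CPM. Neuronal types ran from 38.2 CPM in Exc-Tafa1 to 82.3 CPM in Inh-Lypd6b. The gamma array was highest in leptomeningeal cells (NN-VLMC), precursors and astrocytes, at 140 ± 31.7, 106 ± 8.46 and 101 ± 4.34 CPM, and the spread of precursors overlaps those of both other types. Neuronal types ran from 39.5 CPM in Inh-Lypd6b to 63.6 CPM in Exc-Vwa5b1, with oligodendrocytes at 52.8 ± 12.9 CPM and microglia at 53.3 ± 9.50 CPM inside that range. NN-VLMC had 20 to 80 nuclei per library, and among types with at least 50 nuclei in each library the highest was NN-OPC. As means over the 4 libraries, Inh-Lypd6b thus had the highest alpha and beta levels and the lowest gamma level of the 14 neuronal types tested, where its SD over libraries was 9.38 CPM for alpha, 7.71 CPM for beta and 10.5 CPM for gamma. With counts pooled over libraries, the gamma level was 43.0 CPM in Inh-Lypd6b and lower in Exc-Tafa1, at 42.1 CPM.

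**Figure D2:**
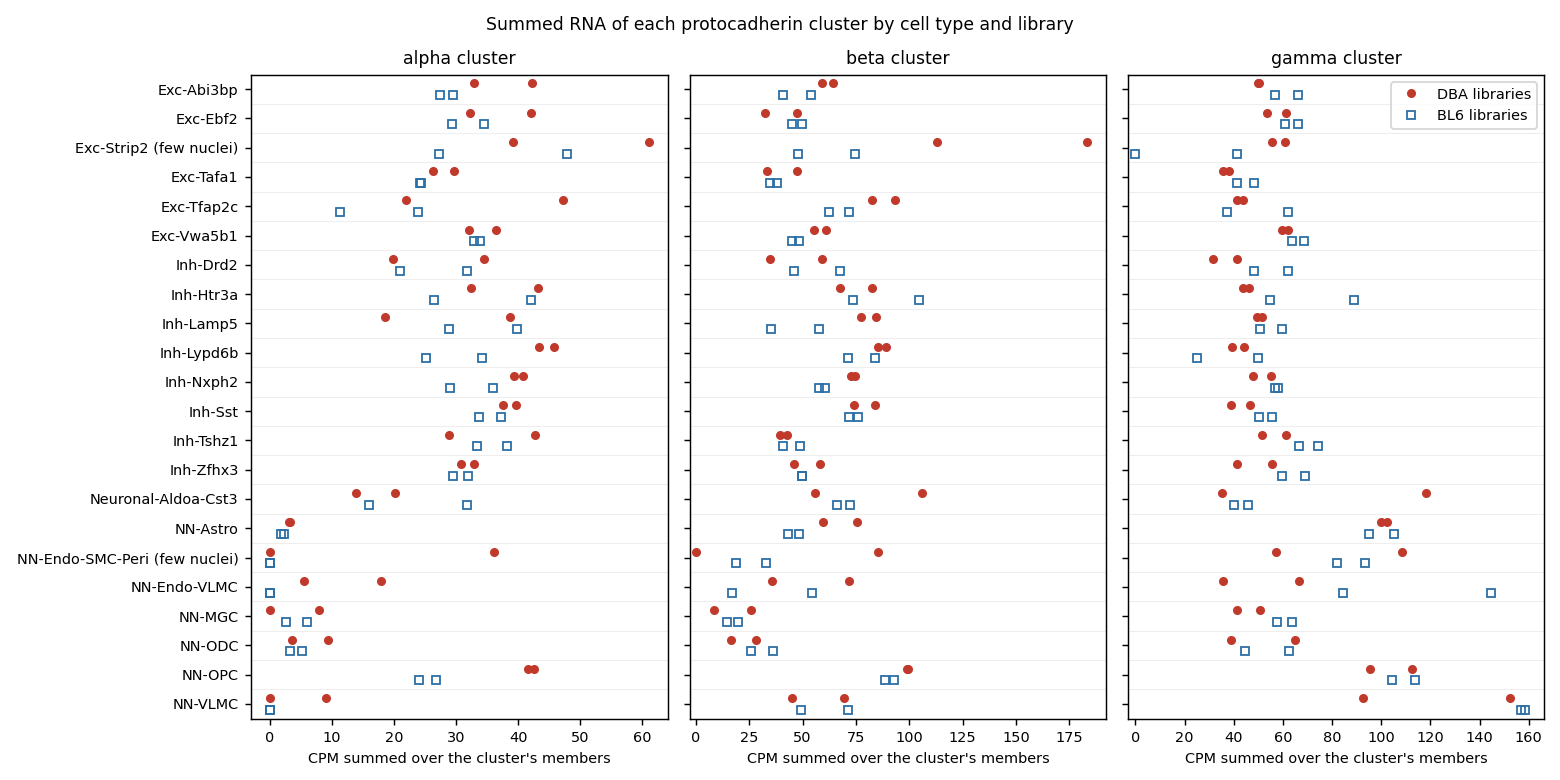
Summed CPM of the alpha, beta and gamma arrays in each tested cell type, 1 point per library, with DBA filled and above BL6, and types with few nuclei marked as such. In the tested non-neuronal types other than NN-OPC the mean alpha level is at most 5.84 CPM, while the mean gamma levels of NN-Astro, NN-OPC and NN-VLMC lie above those of the neuronal types.

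The classes were compared gene by gene with edgeR's quasi-likelihood test and Benjamini-Hochberg adjustment over all genes, with each library as a block, and genes with an adjusted p under 0.05 were called. Of the 57 members, 51 passed the filter on low counts, which a gene can pass through 1 class alone. Neurons (the mean of the excitatory and inhibitory classes) differed from non-neuronal nuclei in 30 of these members, 16 higher and 14 lower in neurons, against 76.5% of all 20840 genes tested. The share among members was thus below that of all genes. All 11 alpha genes tested were higher in neurons, as were 38.8% of all genes, and 12 of 20 gamma genes were lower, as were 37.7% of all genes. With total counts alone in place of TMM scaling the median of all genes moved to -0.10 on the log2 scale, against 0.009 with TMM, and the split became 12 higher and 19 lower.

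Pcdha1 averaged 5.97 ± 0.914 CPM in excitatory and 5.33 ± 0.993 CPM in inhibitory neurons, against 0.814 ± 0.571 CPM in non-neuronal nuclei, a log2 fold change of 2.99 ± 0.26 (SE). The variable genes Pcdha5, Pcdha6 and Pcdha12 followed, at 2.32, 2.19 and 2.15 on the log2 scale. Pcdhac2, the alpha C-type gene known for axon tiling, was also higher, at 1.56 ± 0.18. Pcdha9 was higher by 1.72. In Pcdha7 and Pcdhac1 no test was made because of low counts.

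The beta array moved little, with 3 genes higher (Pcdhb9, Pcdhb20 and Pcdhb21, at 0.49, 0.38 and 0.41) and 2 lower in neurons (Pcdhb2 at -1.12 and Pcdhb14 at -0.35) of 20 tested. Among gamma genes the largest difference was in the C-type gene Pcdhgc3, with 0.537 ± 0.202 CPM in excitatory and 0.778 ± 0.290 CPM in inhibitory neurons, against 6.63 ± 0.811 CPM in non-neuronal nuclei. Its log2 fold change was -3.24 ± 0.17 (edgeR adjusted p = 2.72e-09). Pcdhgb1, Pcdhga6, Pcdhgb4, Pcdhgb7 and Pcdhga11 were lower in neurons by log2 fold changes of -1.35, -1.01, -0.99, -0.90 and -0.86. Pcdhgb7 lost its call without DBA library 2. Pcdhgc4 was lower by -0.66, with 9.34 ± 0.596 CPM in non-neuronal nuclei, while Pcdhgc5 differed by -0.03 and was not called. Only Pcdhga2 (0.96) and Pcdhga3 (0.50) were higher in neurons among the 20 gamma genes tested.

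**Figure D3:**
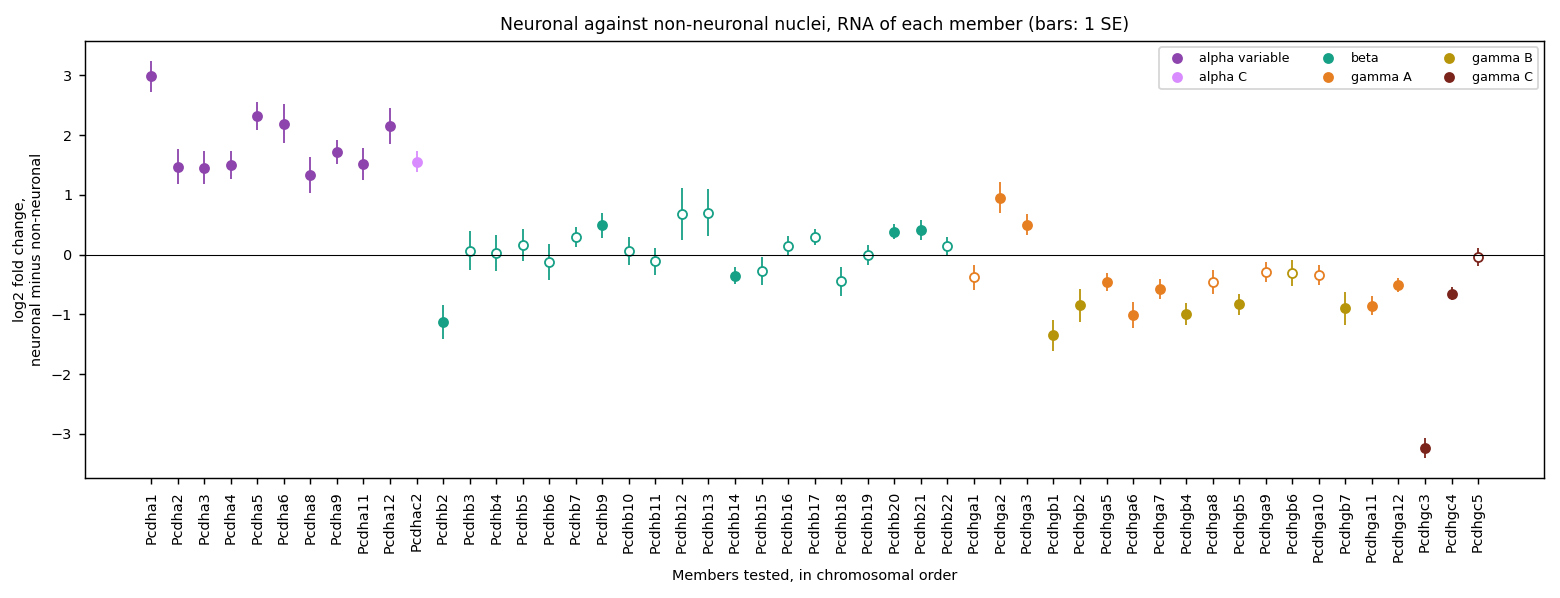
Log2 fold change of neurons over non-neuronal nuclei for the 51 members tested, ordered along the chromosome, with bars of 1 SE, filled where called and open where not. All alpha genes lie above 0, beta genes lie on both sides, and most gamma genes lie below 0, with Pcdhgc3 lowest at -3.24.

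The 5 C-type genes differed from each other in where they were found. Pcdhgc3 was a glial and leptomeningeal gene in these data, with 11.0 ± 3.29 CPM in NN-OPC, 10.3 ± 2.83 CPM in NN-VLMC and 7.93 ± 0.719 CPM in NN-Astro. Each of these types was above the mean of the other types, by log2 fold changes of 3.41, 2.85 and 3.02. In the neuronal types Pcdhgc3 ran from 0.331 to 1.47 CPM, and in microglia and oligodendrocytes it was at 0.214 and 0.695 CPM.

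Pcdhgc4, the C-type gene needed for survival of interneurons in mice, was high in NN-OPC at 13.1 ± 2.40 CPM and NN-Astro at 11.4 ± 1.38 CPM, which were above the other types by 1.28 and 1.11 on the log2 scale. Among neurons Inh-Sst, somatostatin interneurons by name, was above the others by 0.63, at 8.93 ± 0.740 CPM. Exc-Tafa1 was below them by a log2 fold change of -0.94, at 2.72 ± 1.02 CPM, and microglia and oligodendrocytes were below them by -2.17 and -1.08. Pcdhgc5 was less tied to a class, since it was above the other types in Inh-Drd2 (1.30), Inh-Tshz1 (0.89), Exc-Tafa1 (0.87), NN-Astro (0.77), NN-OPC (0.73) and Exc-Abi3bp (0.56), and below them in microglia (-1.75). The Inh-Drd2 level of Pcdhgc5, 10.1 ± 7.39 CPM, had a spread nearly as large as its mean, over libraries with 12 to 111 nuclei. Exc-Tafa1 was thus below the other types in Pcdhgc4 and above them in Pcdhgc5.

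Pcdhac2 did not pass the filter of the fit that sets each type against the others. It had its highest mean in Inh-Sst, at 6.61 ± 2.15 CPM, then Inh-Htr3a at 5.58 ± 0.657 CPM, and 0.755 ± 0.171 CPM in NN-Astro. Pcdhac1 held 56 counts in all, and its mean was at or below 1.00 CPM in each type tested.

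**Figure D4:**
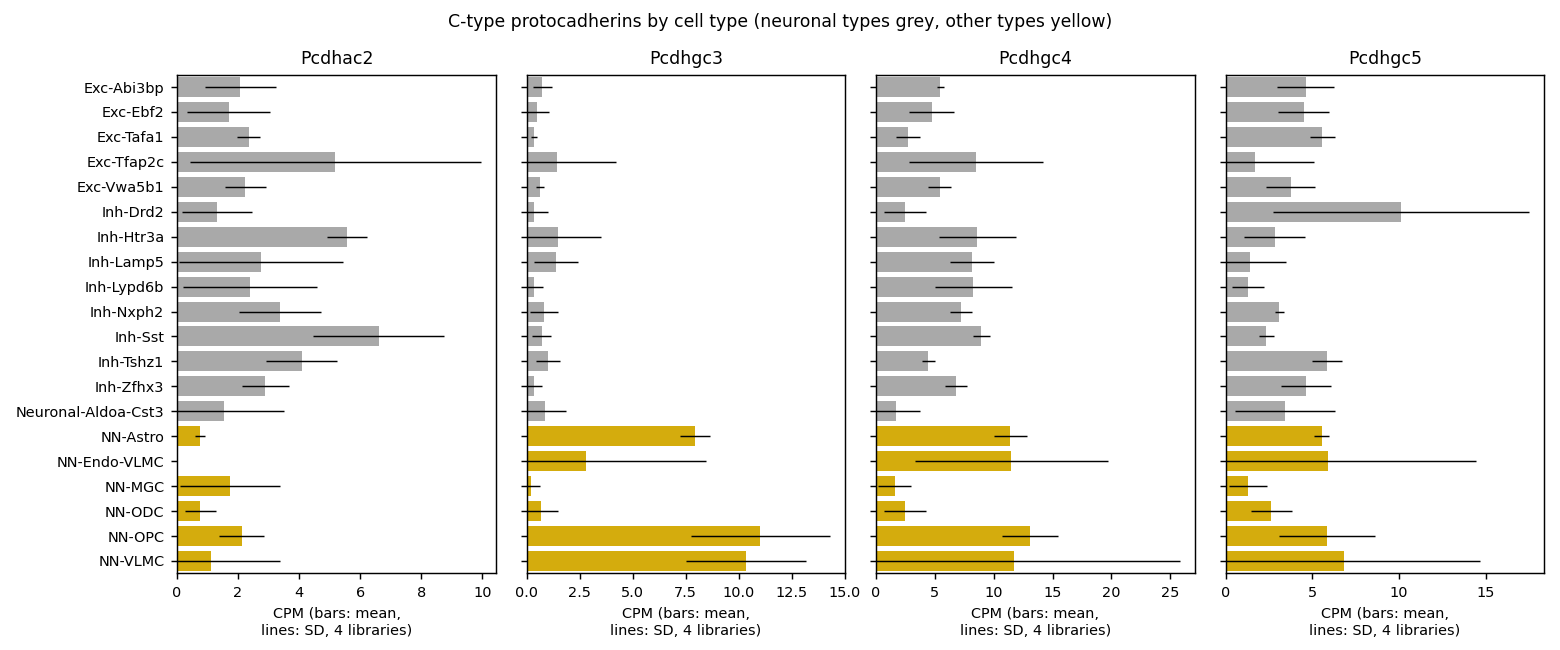
Mean CPM of the C-type genes other than Pcdhac1 in each tested cell type as bars, neuronal types in grey and others in yellow, with lines of 1 SD over the 4 libraries that stop at 0. Pcdhgc3 is high in NN-OPC, NN-VLMC and NN-Astro, Pcdhgc4 is high in NN-OPC and NN-Astro and intermediate in neurons, and Pcdhac2 is highest in Inh-Sst.

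Each type was also set against the mean of the others, a fit in which 25 members passed the filter on low counts. A gene can pass that filter through 1 type alone, so higher calls may include members that passed because they were high in that type. Members that did not pass are not covered. Over the 20 types it gave 88 higher and 20 lower calls among 500 tests of members, or 17.6% and 4%, where 23.9% and 13.0% of all such tests were called. Precursors had the most, with 16 of 25 higher and none lower, where 28.4% of all genes tested were higher in that type and 17.2% lower. Beside Pcdhgc3, the largest were Pcdhb9, with 8.84 CPM in NN-OPC and 2.62 CPM in the other types (2.39 ± 0.31 on the log2 scale), Pcdhga11 (1.77 ± 0.33) and Pcdha4 (1.43 ± 0.37). Astrocytes had 12 higher and 1 lower, where 35.8% of all genes were higher and 24.5% lower. Those higher in NN-Astro included Pcdhga12, with 16.2 CPM in NN-Astro and 7.59 CPM in the other types, and Pcdhb14, with 13.6 CPM in NN-Astro and 7.36 CPM in the other types.

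Microglia, the immune cells of the brain, were the reverse, with 1 higher and 9 lower, where 30.0% of all genes were higher in that type and 28.3% lower. Pcdhb14 was at 0.429 CPM in microglia and 8.06 CPM in the other types, and Pcdhb17 at 2.17 CPM in microglia and 7.24 CPM in the other types. The 1 member higher in microglia was Pcdhgb4, at 7.73 CPM, against 3.51 CPM in the other types. Pcdhgb4 and Pcdhga10 were also higher in NN-VLMC, at 18.3 and 20.9 CPM, among 5 members called there, where 19.2% of all genes were higher. Oligodendrocytes had 2 higher (Pcdhga7 and Pcdhga11) and 4 lower, where 29.4% and 25.2% of all genes were, among them Pcdhb14 (-1.13) and Pcdhb17 (-1.08). Pcdhb13, with no count in oligodendrocytes, was called there as well, but not without DBA library 2, DBA library 3 or BL6 library 2, and its fitted change is not given.

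Among neurons, Inh-Tshz1 had 8 members higher (29.3% of all genes) and Exc-Vwa5b1 had 7 (31.5% of all genes). Pcdha1 was the largest in Exc-Vwa5b1, at 7.68 CPM there and 3.53 CPM in the other types (2.02 ± 0.26). It was above the other types in 11 of the 14 neuronal types, by 1.19 to 2.02, and in none of the 6 others. Of these calls, that in Inh-Drd2 was lost without DBA library 2, BL6 library 2 or BL6 library 3 and that in Inh-Lypd6b without DBA library 2. Inh-Htr3a stood out for Pcdhb9, by 2.00 on the log2 scale. Pcdhb13 was called higher in Exc-Tfap2c, at 2.61, but not without DBA library 2 or BL6 library 3.

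Excitatory and inhibitory neurons differed in fewer members. Of 51 members tested, 3 were lower in excitatory neurons and none higher, or 5.88%, where 24.2% of all genes were called (13.3% higher, 10.9% lower). Pcdhac2 had 2.36 ± 0.393 CPM in excitatory and 3.95 ± 0.494 CPM in inhibitory neurons, a log2 fold change of -0.69 ± 0.15 (edgeR, adjusted p = 0.0054). Pcdhgc4 had 4.45 ± 0.491 CPM in excitatory and 6.67 ± 0.380 CPM in inhibitory neurons, at -0.52 ± 0.13 (adjusted p = 0.0092). Pcdhb16 had 3.79 ± 1.00 CPM in excitatory and 5.69 ± 0.178 CPM in inhibitory neurons, at -0.49 ± 0.16 (adjusted p = 0.042). Without DBA library 3, Pcdhac2 and Pcdhgc4 had adjusted p = 0.062 and 0.072, and Pcdhb16 was past the threshold in no fit that left out a library. With total counts alone 6 members were lower. The beta genes leaned the same way, with 18 of 20 negative and a median of -0.31, where the median of all genes was 4.4e-05. These genes lie in 1 array and were counted in the same 4 libraries, and only Pcdhb16 among them was called.

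DBA and BL6 were compared in fits whose filter on low counts a gene can pass through 1 strain alone. Over all nuclei 56 members passed it, all but Pcdhb1. Of these, 9 were called, 5 higher and 4 lower in DBA, or 16.1%, where 24.0% of all genes were called (18.3% higher, 5.69% lower). Many genes of the table had counts in only 1 strain. Over the genes with 10 or more counts in each strain, 4.88% were called, and only Pcdha8 and Pcdhga11 remained called among members. The count was 4 with DESeq2, 2 without DBA library 2 and 3 without DBA library 3.

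Apart from Pcdhgb8, which had no count in BL6 libraries, the largest change upwards was in Pcdha8, an alpha variable gene, with 1.87 and 2.23 CPM in DBA libraries, against 0.679 and 0.521 CPM in BL6 libraries. Its log2 fold change was 1.79 ± 0.30 (edgeR, adjusted p = 0.0027; 0.021 over genes counted in both strains), and it stayed past the threshold without each library in turn. The largest downwards was in the gamma A gene Pcdhga11, with 0.840 and 1.28 CPM in DBA libraries, against 3.17 and 3.16 CPM in BL6 libraries. Its log2 fold change was -1.50 ± 0.28 (edgeR, adjusted p = 0.0054; 0.034 over genes counted in both strains), and only without DBA library 2 did it miss the threshold (adjusted p = 0.052). The 2 strains did not overlap in either gene.

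The other calls were weaker. Pcdhb6 had 1.96 and 1.78 CPM in DBA libraries, against 0.845 and 0.782 CPM in BL6 libraries (1.23 ± 0.27, edgeR adjusted p = 0.012). Pcdha2 had 1.90 and 1.92 CPM in DBA libraries, against 0.905 and 0.945 CPM in BL6 libraries (1.09 ± 0.26, adjusted p = 0.018), and Pcdhb2 differed by 1.06 ± 0.28 (adjusted p = 0.031). Pcdhgb6, Pcdhga6 and Pcdhga1 were lower in DBA by -1.16 ± 0.27, -1.06 ± 0.25 and -1.18 ± 0.32 (adjusted p = 0.016, 0.018 and 0.032). Each of these 6 kept its direction without any library in turn but was past the threshold in no more than 2 of 4 such fits. For Pcdhb6 the call was lost without either DBA library, and for Pcdhb2 without any of the 4. Pcdha2 and Pcdhgb6 lost it without either DBA library or BL6 library 2, and Pcdhga1 and Pcdhga6 without either DBA library or BL6 library 3.

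The gamma B gene Pcdhgb8, which RefSeq lists as a transcribed pseudogene, had 27 and 53 counts in DBA libraries and 0 and 0 counts in BL6 libraries. Against a floor of 3 counts over the BL6 libraries, it was at least 31.3-fold higher in DBA. The gene sets with counts differ between the strains, and whether Pcdhgb8 was in the annotation used for BL6 was not given in the sources used here, so a lack of transcript and a lack of annotation cannot be told apart.

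Beyond the calls, the DBA libraries lay above both BL6 libraries in 25 members and below both in 10, and the strains overlapped in 21 of the 56 tested. Those above were 44.6% of members, where 29.9% of all genes tested lay above in this way, and those below were 17.9%, where 24.7% of all genes lay below. The median log2 fold change was 0.42 over alpha, 0.36 over beta and -0.004 over gamma genes, where that of all genes was 0.040. Of the 21 beta genes tested, 20 were positive. As arrays, alpha counts were 28.1 and 32.9 CPM in DBA libraries, against 26.4 and 23.5 CPM in BL6 libraries, and beta counts were 56.8 and 62.7 CPM in DBA libraries, against 52.2 and 48.7 CPM in BL6 libraries. Gamma counts were 56.0 and 58.3 CPM in DBA libraries, against 62.4 and 69.4 CPM in BL6 libraries. The neuronal share of nuclei was 54.1% and 69.9% in DBA libraries and 63.4% and 47.0% in BL6 libraries. DBA library 3 had the largest neuronal share and the highest alpha level. BL6 library 3 had the smallest share, the lowest alpha level and the highest gamma level. The remaining libraries went the other way. The DBA library at 54.1% had more alpha (28.1 CPM) and less gamma (56.0 CPM) than the BL6 library at 63.4% (26.4 and 62.4 CPM). Whether the neuronal share accounts for strain differences in array sums was not tested. Within classes, alpha sums of the strains did not overlap in excitatory and non-neuronal nuclei and overlapped in inhibitory neurons, with 34.1 and 38.3 CPM in DBA libraries and 31.5 and 35.0 CPM in BL6 libraries. Beta sums overlapped in excitatory neurons alone, and gamma sums in non-neuronal nuclei alone. The alpha sums leave out an entry named Pcdha11.1, and with it they were 32.8 and 38.6 CPM in DBA libraries, against 32.8 and 29.3 CPM in BL6 libraries, which overlap. In 8 of 20 cell types both DBA libraries lay above both BL6 libraries for alpha, and in none below, and the same held for beta. For gamma, both DBA libraries lay below in 12 types and above in none. The types come from the same 4 libraries, so these counts are not separate observations. The share of all genes whose strains separate in this way within single types was not computed.

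Within classes, 6 of 53 members tested were called in excitatory neurons (2 higher, 4 lower), where 24.3% of all genes were (16.7% higher, 7.54% lower). The count was 6 of 53 in inhibitory neurons (1 higher, 5 lower), where 23.9% of all genes were called (17.0% higher, 6.82% lower). It was 5 of 41 in non-neuronal nuclei (4 higher, 1 lower), where 20.0% of all genes were called (13.5% higher, 6.51% lower). With total counts alone in place of TMM the splits were 1 higher and 5 lower in excitatory neurons and 3 higher and 2 lower in non-neuronal nuclei. Without single libraries the counts fell as far as 2 in excitatory neurons (DBA library 3 or BL6 library 2), 2 in inhibitory neurons (DBA library 2) and 1 in non-neuronal nuclei (DBA library 2). Over genes counted in both strains these counts were 3, 4 and 1, with 9.67%, 8.62% and 8.25% of all such genes called. Pcdhga11 was lower in DBA in each class, with 0.678 and 1.12 CPM in DBA libraries and 2.51 and 2.42 CPM in BL6 libraries in excitatory neurons (-1.35 ± 0.35). It had 0.700 and 1.24 CPM in DBA libraries and 2.61 and 2.55 CPM in BL6 libraries in inhibitory neurons (-1.34 ± 0.35). In non-neuronal nuclei Pcdhga11 had 1.09 and 1.79 CPM in DBA libraries and 6.26 and 4.87 CPM in BL6 libraries (-1.84 ± 0.38). It remained called in each class over genes counted in both strains, but lost the call without DBA library 2 in each class and without BL6 library 2 in the neuronal classes, where adjusted p reached 0.062, 0.093 and 0.069 in excitatory, inhibitory and non-neuronal nuclei.

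Pcdha8 was higher in DBA in excitatory neurons, with 1.94 and 2.61 CPM in DBA libraries and 0.578 and 0.744 CPM in BL6 libraries (1.88 ± 0.38), and in inhibitory neurons, with 2.17 and 2.40 CPM in DBA libraries and 0.848 and 0.686 CPM in BL6 libraries (1.54 ± 0.35). Without DBA library 3 its adjusted p in excitatory neurons was 0.061. Pcdhga6 was lower in both neuronal classes, by -1.18 ± 0.30 and -1.35 ± 0.37. Its call in excitatory neurons was lost without DBA library 2 (edgeR adjusted p = 0.053), without BL6 library 2 (0.067) and with DESeq2 (0.097), and that in inhibitory neurons without DBA library 2 (0.099) or BL6 library 3 (0.097). Pcdhgb6 was called lower in inhibitory neurons, by -1.55 ± 0.34, with every library left out in turn. Pcdhga1 was lower in both neuronal classes as well (-1.33 and -1.15), although over genes counted in both strains it was called in neither, and without single libraries it lost the call in 2 of 4 fits in excitatory and 3 of 4 in inhibitory neurons. In non-neuronal nuclei Pcdha1, Pcdha5 and Pcdhb6 were called higher, at 2.01, 1.42 and 1.96, none of them over genes counted in both strains. Members higher in DBA can pass the filter of this fit through DBA alone. Pcdha1 and Pcdha5 lost the call there without any of the 4 libraries, and Pcdhb6 without 3 of them. The other higher call there was Pcdhgb8. Pcdhb8 and Pcdhga3 in excitatory neurons and Pcdha9 in inhibitory neurons completed the calls, at 1.37, -0.91 and -0.85, and each was lost over genes counted in both strains.

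The strain difference was tested for a difference between excitatory and inhibitory neurons in a fit of its own. None of 51 members was called there with edgeR, 2 had an unadjusted p under 0.05, the smallest adjusted p was 0.764, and DESeq2 called none. Over all genes 1 of 20840 was called, or 0.00480%.

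Within single cell types a gene can also pass the filter through 1 strain alone, so calls may include members that passed in that way. Of 223 tests of members, 12 were called between strains, or 5.38%, against 12.8% of all tests. The strongest was Pcdhga11 in NN-OPC, with 0.677 and 1.92 CPM in DBA libraries, against 10.7 and 10.5 CPM in BL6 libraries (-2.87 ± 0.59, edgeR adjusted p = 0.00067). In the same type Pcdhga10 was higher in DBA, with 8.12 and 8.94 CPM in DBA libraries and 2.22 and 2.33 CPM in BL6 libraries (1.95 ± 0.49, adjusted p = 0.0065), so that neighbouring gamma A genes differed in opposite directions in precursors. Pcdhga10 was also higher in Inh-Nxph2 (1.80 ± 0.49), and Pcdhb14 in NN-Astro, with 16.0 and 19.2 CPM in DBA libraries, against 7.82 and 11.6 CPM in BL6 libraries (1.00 ± 0.27). Pcdhgb6 was lower in Inh-Tshz1 and Inh-Zfhx3, at -2.11 and -2.12, and Pcdha8 was higher in Exc-Tafa1 and Inh-Tshz1, at 2.17 and 1.44. Pcdha9 in Inh-Zfhx3, Pcdhga6 in Inh-Nxph2 and Pcdhga3 in Exc-Vwa5b1 were lower, at -1.78, -1.86 and -1.36, and Pcdhgb8 was called in NN-Astro. Over genes counted in both strains the 12 calls became 7, and with DESeq2 1. Without DBA library 2, DBA library 3 and BL6 library 2 they became 7, 1 and 4.

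**Figure D5:**
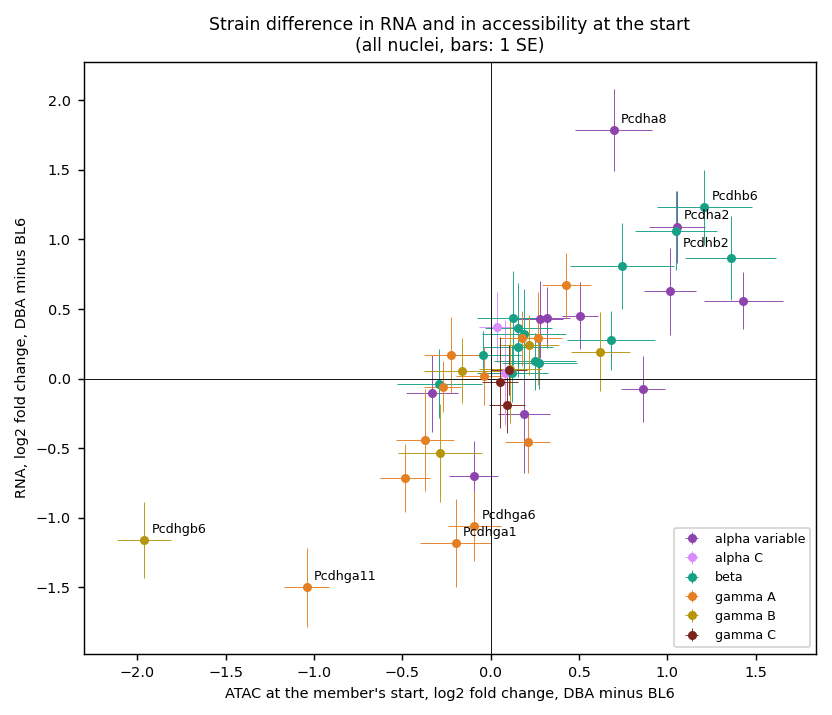
Log2 fold change of DBA over BL6 in RNA against that of the ATAC peak at the gene's start, over all nuclei, for the 48 members with both values other than Pcdhgb8, coloured by subgroup, with bars of 1 SE. Pcdha8, Pcdha2, Pcdhb2 and Pcdhb6 lie above 0 on both axes, and Pcdhga11 and Pcdhgb6 lie below 0 on both.

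ATAC counts gave a second measure at the same genes. Of 271433 peaks, 91 had their centre in the 3 arrays or within 10 kb of them, 41 in alpha, 16 in beta and 34 in gamma. A peak overlapped the window of 500 bases around the RefSeq start in 50 of the 57 members, and in none of Pcdhb4, Pcdhb7, Pcdhb8, Pcdhb10, Pcdhb11, Pcdhb18 and Pcdhb21. Over all nuclei 24 of the 91 peaks were called between strains, 20 higher and 4 lower in DBA, where 6.44% of all peaks were called (3.21% higher, 3.23% lower). All 12 calls in alpha and all 4 in beta were higher in DBA, and gamma had 4 each way. Without BL6 library 2 the count was 14.

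At start sites the largest gain was at Pcdhb1, with 5.63 and 6.21 CPM in DBA libraries, against 1.56 and 1.86 CPM in BL6 libraries (1.82 ± 0.14, edgeR adjusted p = 3.75e-36). Its RNA, 20 counts in all, was not tested. Accessibility at Pcdha1 was 1.31 and 1.74 CPM in DBA libraries and 0.580 and 0.575 CPM in BL6 libraries (1.43 ± 0.22). The start peaks of Pcdhb3, Pcdhb6, Pcdha2, Pcdhb2, Pcdha3, Pcdha4, Pcdha10 and Pcdha8 were higher by 1.36, 1.21, 1.05, 1.05, 1.01, 0.86, 0.70 and 0.70. Pcdha10 is a RefSeq gene of the alpha array that is not among the 57 members of the RNA table, and its start had a peak as well. The first genes of the alpha array in chromosomal order, Pcdha1 to Pcdha4, were thus all more accessible in DBA. Pcdhgb1, Pcdha12 and Pcdhga10 completed the gains, at 0.62, 0.51 and 0.43.

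The largest loss was at Pcdhgb6, with 1.22 and 1.16 CPM in DBA libraries, against 4.94 and 4.65 CPM in BL6 libraries (-1.96 ± 0.15, adjusted p = 1.90e-33 by edgeR). Pcdhga11 followed, with 2.45 and 3.17 CPM in DBA libraries and 5.81 and 6.03 CPM in BL6 libraries (-1.04 ± 0.13). The strains did not overlap at either start. Pcdhgb8 and Pcdhga3 were lower by -0.53 and -0.49. The Pcdhgb8 start was thus counted in both strains and less accessible in DBA, where its RNA was counted only in DBA. Without single libraries Pcdha8 lost its peak call in each of the 4 fits, Pcdhga10 in 3, Pcdhga3 and Pcdhgb1 without BL6 library 2 and without BL6 library 3, Pcdhb2 and Pcdhgb8 without BL6 library 2 and Pcdha12 without BL6 library 3. At the C-type starts the differences were 0.03 at Pcdhac2 and 0.05 at Pcdhgc3, and neither was called. Whether strain variants alter how reads map to the mm10 sequence was not tested.

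In the neuronal classes, 16 of the 91 peaks were called in excitatory neurons (14 higher, 2 lower), where 4.93% of all peaks were (2.53% higher, 2.40% lower), and 16 in inhibitory neurons (13 higher, 3 lower), where 3.47% were (1.88% higher, 1.58% lower). Without BL6 library 2 these counts were 9 and 9, and without BL6 library 3 the inhibitory count was 7. Away from the start sites, a gamma peak at positions 37824867 to 37825503 of chromosome 18 (mm10) had 13.8 and 13.8 CPM in DBA libraries, against 7.47 and 7.83 CPM in BL6 libraries (0.89 on the log2 scale).

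RNA and start-peak accessibility were then set side by side. Over all nuclei these are unlike mixes, since 47.0% to 69.9% of RNA nuclei and 97.0% to 98.2% of ATAC nuclei were neuronal. Of the 49 members with both values over all nuclei, 39 had log2 fold changes of the same sign, and 7 were called in both, of which 6 had the same direction: Pcdha2, Pcdha8, Pcdhb2, Pcdhb6, Pcdhgb6 and Pcdhga11. The exception was Pcdhgb8. The share of all genes whose RNA and start peak had the same sign is not given here. As a description over 49 genes of 1 locus, from the same 2 strains and with shared exons among alpha and gamma genes, Pearson's r was 0.197 and Spearman's rho 0.696. Without Pcdhgb8, whose fitted RNA change rests on zeros, r was 0.770 and rho 0.794 over 48 genes. In excitatory neurons r was 0.649 and in inhibitory neurons 0.712, over 46 genes each. Within these classes fewer members were called in both assays. In excitatory neurons it was 1, Pcdhga11, and in inhibitory neurons 2, Pcdhga11 and Pcdhgb6, all with the same direction in both assays.

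Between neuronal classes, 28 of the 91 peaks were called, 8 higher and 20 lower in excitatory neurons, where 60.8% of all peaks were called (31.3% higher, 29.5% lower). With TMM scaling replaced by total counts alone, the split was 12 higher and 14 lower. With TMM, the C-type starts other than that of Pcdhgc5 were among those lower in excitatory neurons. Pcdhgc3 had 18.3 ± 0.291 CPM in excitatory and 23.6 ± 0.451 CPM in inhibitory neurons (-0.44 ± 0.04), followed by Pcdhac1 (-0.43), Pcdhac2 (-0.23) and Pcdhgc4 (-0.18), while Pcdhgc5 was not called (0.09). The start of Pcdhgc3 was thus open in neurons, where its RNA was low. Near the 3′ end of the alpha array, a peak at positions 37180057 to 37180454 of chromosome 18 had 1.73 CPM in excitatory and 5.95 CPM in inhibitory neurons (-1.84 ± 0.13). A second at 37177972 to 37178944 had 15.6 CPM in excitatory and 22.2 CPM in inhibitory neurons (-0.59 ± 0.05).

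Summed over the 11 starts of alpha variable genes, accessibility was 39.7 ± 7.21 CPM in excitatory and 38.5 ± 5.88 CPM in inhibitory neurons, and 22.6 ± 14.0 CPM in non-neuronal nuclei, the last resting on 138 counts. At the 3 gamma C-type starts it was 67.6 ± 1.64, 71.4 ± 1.79 and 75.7 ± 13.4 CPM in excitatory, inhibitory and non-neuronal nuclei. These non-neuronal values come from the few non-neuronal nuclei of the ATAC libraries and were not tested.

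Known regulators and partners of the family were read beside it, as lists of 17 genes each. Among the regulators (Ctcf, cohesin genes and chromatin repressors), none was called between strains over all nuclei, in excitatory neurons or in non-neuronal nuclei. In these comparisons 24.0%, 24.3% and 20.0% of all genes were called. In inhibitory neurons 1 regulator, the cohesin loader subunit Mau2, was higher (0.29), where 23.9% of all genes were called. The median over all nuclei was 0.066, where that of all genes was 0.040. Between neurons and non-neuronal nuclei, 3 regulators were higher and 10 lower in neurons, where 38.8% of all genes were higher and 37.7% lower. Rest, a repressor of neuronal genes in other cells, averaged 5.56 ± 0.894 CPM in excitatory and 3.78 ± 0.575 CPM in inhibitory neurons, against 19.8 ± 0.718 CPM in non-neuronal nuclei (-2.0). Dnmt3b, a DNA methyltransferase that acts on these promoters in mouse embryos, averaged 1.21 ± 0.458 CPM in excitatory and 1.17 ± 0.452 CPM in inhibitory neurons, against 6.46 ± 2.01 CPM in non-neuronal nuclei (-2.37). Ctcf itself was lower in neurons by -0.34.

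Among partners, the receptor tyrosine kinase Ret, which binds protocadherins, was the 1 gene called between strains over all nuclei, where 24.0% of all genes were called. Ret had 3.55 and 3.26 CPM in DBA libraries, against 1.52 and 1.86 CPM in BL6 libraries (1.07 ± 0.24, edgeR adjusted p = 0.013). In excitatory neurons, where 1 partner and 24.3% of all genes were called, Ret differed by 1.81 ± 0.34. The kinase Fyn was higher in DBA in non-neuronal nuclei, by 0.37, where 20.0% of all genes were called. No partner was called in inhibitory neurons, where 23.9% of all genes were. The strain calls of Mau2, Ret and Fyn were not rerun with single libraries left out or with other settings. Between neurons and non-neuronal nuclei, 7 partners were higher and 8 lower in neurons, together 15 of 17, where 76.5% of all genes were called. Ptk2b, the kinase Pyk2 that protocadherins inhibit, was higher by 2.39, and Cyfip2 and Abi2, of the WAVE complex that C-terminal tails of the family recruit, were higher by 1.58 and 1.12. Abi1 was lower by -1.01, as was the shedding protease Adam10, by -0.78.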

How the data were processed

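RNA values were deposited as whole-number counts per gene and ATAC values as counts per peak, each already added up by the authors for every cell type of a library, beside the number of nuclei. Per the submitters' processing notes, the tools were Cell Ranger 6.0.2 with Seurat 4.0.5 (RNA) and Cell Ranger ATAC 2.0.0 (ATAC), on build mm10. The gene annotation of each strain, the use of strand, filters on nuclei, the treatment of doublets and the peak caller were not given in the sources used here. Cell type names are the authors' own, and doublets were not sought, since the files hold sums. The tables number the libraries 2 and 3 and the titles 1 and 2, so libraries were matched to a strain and assay but not to single titled samples, and they carry the tables' numbers.

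Counts were summed over all nuclei and over excitatory, inhibitory and non-neuronal types. A type was tested when each library had at least 10 nuclei and 50000 RNA counts. Differences were tested with edgeR 4.0.16 in R 4.3.3 (robust quasi-likelihood test, TMM scaling, filterByExpr with a minimum count of 10), fitted on all genes or peaks, with Benjamini-Hochberg adjustment and a threshold of 0.05. Class and type fits had each library as a block. Alternatives were DESeq2 1.42.0, other scalings, no filter, genes with at least 10 counts in each strain, a replicate block and each library left out. With 2 libraries per strain, pooled over animals, p-values measure only the spread between these libraries, although the libraries of each strain differed by far more than sampling noise (chi-square per degree of freedom of 15.3 in DBA and 33.4 in BL6).

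Named genes were the C-type genes, the 4 genes with the highest mean level in each array, up to 6 called members each way per comparison, genes counted in 1 strain and the called member with the largest change in each type. Other members named in the class, type and start-peak results were chosen after their values were seen. The members, the lists and the tests were chosen with earlier results of these data known. Starts are the lower RefSeq coordinates, since the table gives no strand. The statistics were tested on simulated data with known changes, with the same fixed spread for all genes. The changes were put in genes with higher counts, so the simulation does not cover members with few counts. Intervals and floors cover counting error only.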

Additional observations from a re-analysis of the deposited data

Results flagged for a closer look

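The RNA table holds an entry named Pcdha11.1, which the naming rule does not take and which no comparison uses. It had 151 and 291 counts in DBA libraries and 428 and 177 counts in BL6 libraries, 1047 counts in all, which is more than any alpha gene taken by the rule. It was singled out because it carries signal outside the measurements reported. What the entry holds was not given in the sources used here, so alpha array sums leave it out. In CPM it was at 4.70 and 5.75 in DBA libraries and 6.46 and 5.77 in BL6 libraries, and with it the alpha sums of the strains overlap.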

How the results depend on the processing

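Over all nuclei, 9 calls became 4 with DESeq2, 3 with a replicate block, 14 with a crossed block (added after seeing the data), 2 over genes counted in both strains and 2 to 6 without single libraries. In excitatory neurons 6 became 10 with no filter, 2 with DESeq2, 3 over genes counted in both strains and 2 to 5 without single libraries, and in inhibitory neurons 6 became 10 with no filter, 2 with DESeq2 and 2 to 6. In non-neuronal nuclei 5 became 2 with DESeq2, 2 with a replicate block, 1 over genes counted in both strains and 1 to 3. Over cell types 12 became 1 with DESeq2, 7 over genes counted in both strains, and 1 to 11. Between neuronal classes 3 became 6 with total counts alone and 1 to 3 without single libraries, and over the type contrasts 108 became 193 with no filter. Peak counts of 24, 16 and 16 (all, excitatory and inhibitory nuclei) became 14 to 22, 9 to 20 and 7 to 16 without single libraries. The highest gamma level became 106 CPM with at least 50 nuclei per library. The neuronal against non-neuronal counts stayed within 1.5 times under all alternatives run, and the interaction gave 0 calls in each. The main fits did not pair libraries by number. The correlation of same-numbered deviations was -0.4045 over all nuclei. It was -0.12, 0.033 and -0.032 in excitatory, inhibitory and non-neuronal nuclei. With 2 pairs these values cannot tell whether same-numbered libraries belong together. No setting run changed the sign of a named member that was called. Uncalled strain differences changed sign for Pcdhac1 (-0.0039 with total counts), for Pcdhgc3 (0.027 with the crossed block) and, without single libraries, for Pcdhac1 (-0.12 to 0.16), Pcdhgc3 (-0.41 to 0.42), Pcdhgc4 (-0.0052 to 0.14), Pcdha4 (-0.28 to 0.19), Pcdhb17 (-0.048 to 0.25), Pcdhb16 (-0.016 to 0.29) and Pcdhga12 (-0.19 to 0.075). Adding the entry Pcdha11.1 to the alpha sum, an alternative chosen after seeing the data, gave a difference of 4.65 CPM between the strain means, against 5.53 CPM. Total counts moved the median of all genes in the non-neuronal strain comparison to -0.08, against 0.03 with TMM. Over genes counted in both strains, 21161 genes were tested over all nuclei and 1033 called, against 25329 tested and 6073 called in the main fit. Why fewer members were called there was not tested. Low counts per member limit single types most.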
